A study of Rattus norvegicus with 23 samples.

Results

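The aminoacyl-tRNA synthetases and the auxiliary proteins Aimp1 and Aimp2 were described here in rat kidney cells at normal and acidic pH. Members were taken by gene symbol, namely every gene whose symbol is an amino acid letter followed by "ars", with or without a closing 1 or 2, in its older or newer form (Eprs or Eprs1), plus Farsa, Farsb, Aimp1 and Aimp2. The rule found 39 of the 30452 genes in the deposited count table, of which 20 encode cytosolic enzymes or their subunits, 17 encode mitochondrial enzymes and 2 encode the auxiliary proteins. Of the 39 members, 37 passed the filter on low counts. Tars2, the mitochondrial enzyme for threonine, had 0 counts in every sample and was not tested, and the level of 3 counts, taken as the limit of detection, was 0.0839 to 0.203 FPM (the unit of the study, counts per scaled library size). Cars1, Eprs1, Gars1 and Kars1 are listed under the older symbols Cars, Eprs, Gars and Kars, and Vars2 is annotated as a pseudogene in the table.

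Aminoacyl-tRNA synthetases attach each amino acid to its tRNA and so supply the ribosome with charged tRNAs. The cytosolic and the mitochondrial enzymes are encoded in the nucleus, mostly by separate genes, although Gars1 and Kars1 each give both forms. Gars1 and Kars1 were counted as cytosolic only in all counts and sums below. Several cytosolic enzymes sit in a multi-synthetase complex held together by Aimp1, Aimp2 and a further scaffold protein. Many cytosolic synthetase genes are known targets of ATF4, the transcription factor that is translated when eIF2 is phosphorylated in the integrated stress response, a pathway that kidney cells also engage when amino acids run short.

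NRK-52E cells, labelled epithelial, and NRK-49F cells, which are fibroblasts, are established lines from normal rat kidney. Both were grown in DMEM with 10% FCS, kept for 24 h without serum, and exposed to medium of pH 7.4, or of pH 6.0 set with HCl, over the following 48 h. Poly(A) RNA was sequenced from n = 6 samples of NRK-52E cells at each pH, from n = 6 samples of NRK-49F cells at pH 7.4 and from n = 5 at pH 6.0. The labels assign each sample to a sample group, 1 or 3 for the NRK-52E line, 4 or 6 for the NRK-49F line, and do not say what these groups are. Each line is a single cell culture model without the neighbouring cell type, and neither the labels nor the methods say whether the samples came from separate cultures, so that the p-values measure the spread between these samples, which may be technical.

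Total counts per sample ranged from 16412564 to 34250535, and no pair of samples agreed within sampling noise. Of 9 epithelial marker genes, only Krt7 and Krt8 had more than 3 counts in every NRK-52E sample, while Epcam, Cdh1, Krt18, Cldn1, Cldn4, Cdh16 and Pax8 were at or near 0. The summed level of the epithelial markers was 463 to 683 FPM in NRK-52E cells at pH 7.4 and 200 to 265 FPM at pH 6.0, and NRK-49F cells had 670 to 1209 FPM and 441 to 699 FPM. The summed level of 10 fibroblast markers was 10490 to 13560 FPM in NRK-49F cells at pH 7.4 and 7315 to 9806 FPM at pH 6.0, against 4901 to 8102 FPM and 1830 to 3110 FPM in NRK-52E cells. Col3a1 made up nearly all of the sum in NRK-52E cells, with a mean of 6149 FPM at pH 7.4 against 1212 FPM in NRK-49F cells, while Col1a1 (58.1 against 5877 FPM), Col1a2 (13.5 against 4476 FPM) and Pdgfra (1.83 against 306 FPM) were far lower there. At pH 7.4 Krt7 was higher in NRK-52E than in NRK-49F cells (21.8 against 1.42 FPM), whereas Krt8 was lower (499 against 839 FPM). The fibroblast markers Thy1 and Fap were at or near 0 in each line. Both marker sums thus moved with the pH in NRK-52E cells, and their part in the results below was not tested. Since most epithelial markers were at or near 0, the cells are named below by their line. In 1 NRK-52E sample at pH 7.4, A021, the fibroblast genes Lum, Col1a2, Vcam1 and Pdgfra reached 1.18% to 2.37% of their mean level in NRK-49F cells. Another NRK-52E sample at pH 7.4, A035, stood apart from the other 5 for 7 members, and 1 NRK-49F sample at pH 6.0, A042, had the lowest scaling factor of all samples (0.804). Counts are given below with and without these samples where they move.

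In NRK-52E cells the cytosolic synthetases were mostly higher at pH 6.0, while 8 of 15 tested mitochondrial synthetases were lower. Of 20 cytosolic members, 17 rose and 0 fell (edgeR's quasi-likelihood test, Benjamini-Hochberg adjusted p under 0.05), while of all tested genes 61.2% passed, 24.7% upwards and 36.6% downwards. Their median log2 fold change was 0.57, from -0.18 to 1.33, beside a median of -0.12 over all genes tested. In 13 of the 20 the levels at both pH values did not overlap, a separation found for 38.6% of all genes. Among the 3 members that did not pass the test were Rars1 (log2 fold change -0.18), which charges arginine, and Farsa (-0.04), the alpha subunit of the phenylalanine enzyme. Without A021, 16 cytosolic members passed the test, and without A035 17 did.

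**Figure D1:**
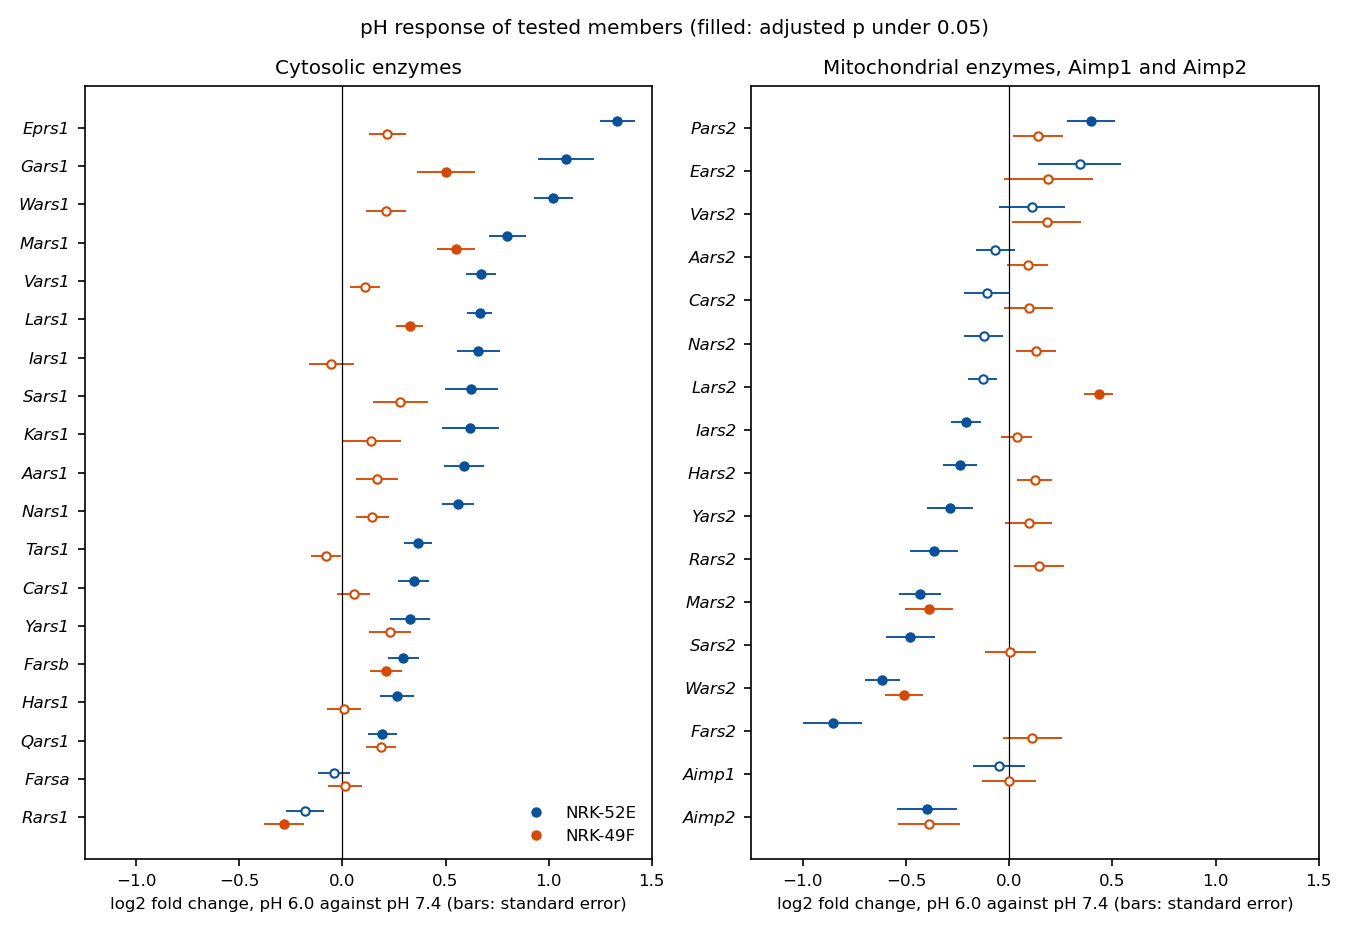
The plot gives the log2 fold change of 36 tested members from pH 7.4 to pH 6.0, with its standard error, for NRK-52E cells in blue and NRK-49F cells in orange, and filled points passed the test. Cytosolic enzymes of NRK-52E cells lie between -0.18 and 1.33, most of them to the right of NRK-49F cells, and most mitochondrial enzymes of NRK-52E cells lie below 0.

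Eprs1, the bifunctional enzyme that charges glutamate and proline tRNAs, had the largest change. Its level in NRK-52E cells was 319 FPM in the lowest, 370 at the median and 386 in the highest sample at pH 7.4, and 822, 913 and 1025 FPM at pH 6.0. All 6 samples at pH 6.0 were above the highest sample at pH 7.4. The fitted change was 2.52-fold (log2 1.33 ± 0.09 SE, adjusted p = 5.22e-12 by edgeR's quasi-likelihood test), with a log2 fold change of 1.13 in sample group 1 alone and of 1.53 in sample group 3 alone.

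Gars1 charges glycine tRNA in the cytosol and in mitochondria. Its NRK-52E levels had a minimum of 324 FPM, a median of 350 and a maximum of 424 at pH 7.4, where A035 was the highest sample, and 574, 763 and 950 FPM at pH 6.0. Both conditions were separate, and at pH 6.0 the samples fell into sample group 1 (574 to 626 FPM) and sample group 3 (899 to 950 FPM) without values between them. The log2 fold change was 1.08 ± 0.13 (adjusted p = 2.551e-07), with 0.80 in sample group 1 and 1.30 in sample group 3.

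Wars1, the tryptophan enzyme, rose from 42.6, 49.5 and 53.8 FPM (lowest, median and highest) to 79.7, 101 and 119 FPM, so that its conditions did not overlap either. Its log2 fold change was 1.02 ± 0.09 (adjusted p = 2.091e-09). Mars1 charges methionine, including that of the initiator tRNA, and rose from 239, 257 and 275 FPM to 396, 448 and 499 FPM (log2 0.80 ± 0.09, adjusted p = 3.937e-08). Lars1, the leucine enzyme, which is also known as a leucine sensor of mTORC1, rose from 172, 183 and 196 FPM to 264, 291 and 320 FPM (log2 0.67 ± 0.06, adjusted p = 1.992e-09). None of these members overlapped between the pH values.

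The other cytosolic members that rose in NRK-52E cells did so by less. Vars1 (valine), Iars1 (isoleucine), Sars1 (serine), Kars1 (lysine), Aars1 (alanine) and Nars1 (asparagine) had log2 fold changes of 0.67, 0.66, 0.62, 0.62, 0.59 and 0.56. Tars1 (threonine), Cars1 (cysteine), Yars1 (tyrosine), Farsb (the beta subunit for phenylalanine), Hars1 (histidine) and Qars1 (glutamine) followed with 0.37, 0.35, 0.33, 0.30, 0.26 and 0.19. Hars1, Kars1, Qars1 and Yars1 overlapped between both pH values although they passed the test. By structure of the catalytic domain, 8 of 9 class I enzymes and 8 of 10 class II enzymes rose, Eprs1 holding a domain of each class. Of the 10 members in the multi-synthetase complex, which include the auxiliary Aimp1 and Aimp2, 6 rose and 1 (Aimp2) fell. Of the 12 cytosolic members outside it, all of them enzymes or their subunits, 11 rose, and of all genes 24.7% rose and 36.6% fell.

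**Figure D2:**
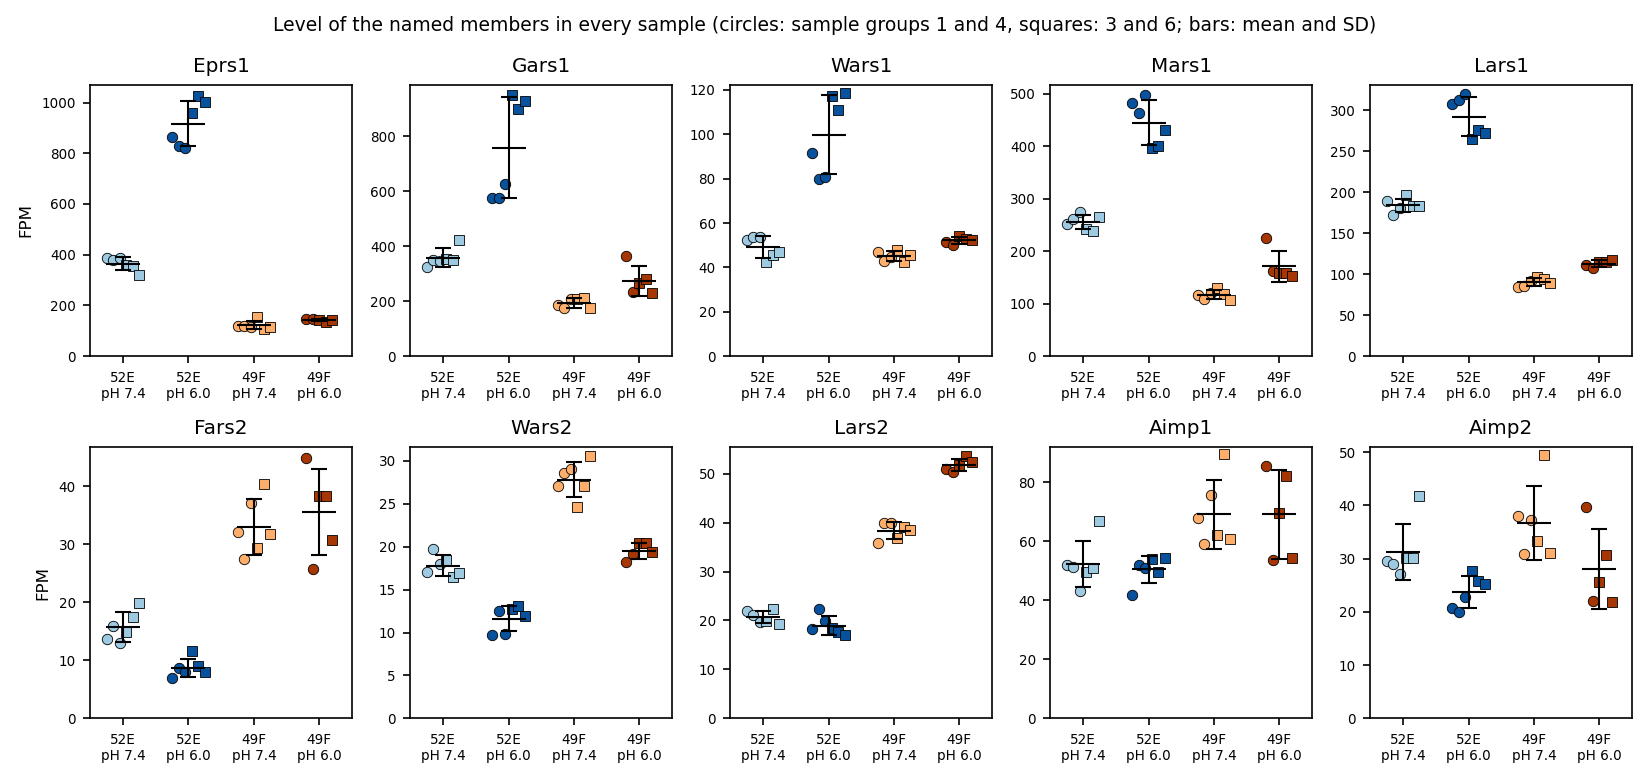
Each panel shows the level of a member in FPM, from 0, in every sample of the 4 conditions, with circles for sample groups 1 and 4, squares for sample groups 3 and 6, and the mean with its SD. Eprs1, Gars1, Wars1, Mars1 and Lars1 of NRK-52E cells lie higher at pH 6.0 than at pH 7.4 in all samples, and Fars2 and Wars2 lie lower.

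The promoters of cytosolic members were examined for the sequence that ATF4 and C/EBP proteins are known to bind in amino acid response elements. The windows run from 250 bases before to 50 bases after the transcription start (RefSeq, GRCr8), and 17 of 20 cytosolic, 16 of 17 mitochondrial and both auxiliary members were matched, whereas Gars1 and Rars1 were among those not matched. TTGCATCA, or TGATGCAA on the other strand, was found in 7 of 17 cytosolic promoters, in 0 of 16 mitochondrial and in 0 of 2 auxiliary ones, and in 0.795% of all 33469 promoters. The looser form TGATGNAA (either strand), which contains every match of the former, was found in the same 7 cytosolic promoters and in 3.98% of all. TGACGTCA, the cAMP response element core, was in 0 member promoters and 1.83% of all. TGACNNNGC, the antioxidant response element, was in 4 of 17 cytosolic, 3 of 16 mitochondrial and 1 of 2 auxiliary promoters and in 12.1% of all, on either strand. For 6 of the 7 the match is printed with 11 bases on each side inside the window, 5′ to 3′ on the strand of the gene, since these genes share a motif that the rule for members did not use, and capitals mark the match.
Cars1, chr1:208225334-208225363, minus strand: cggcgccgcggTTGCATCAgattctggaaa
Iars1, chr17:15193658-15193687, minus strand: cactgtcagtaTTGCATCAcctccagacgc
Mars1, chr7:65023752-65023781, minus strand: gcccgttccggTTGCATCAgcgtgggctcc
Nars1, chr18:60275778-60275807, minus strand: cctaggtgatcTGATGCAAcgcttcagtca
Tars1, chr2:62114811-62114840, minus strand: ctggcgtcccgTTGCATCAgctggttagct
Yars1, chr5:146820190-146820212, plus strand: acgagctcagcTGATGCAAcctg
In 4 of these 6 the match lies before the transcription start, from position -27 in Tars1 to position -7 in Nars1, and in Cars1 and Yars1 it lies after the start, at 18 to 25 and at 39 to 46. The capitals show 4 matches as TTGCATCA and 2 as TGATGCAA. In NRK-52E cells all 7 members with the match rose, by 0.33 to 0.80 (median 0.56). Of the 10 cytosolic members whose promoter window lacks it 9 rose, from -0.04 to 1.33 (median 0.62), and among these is Eprs1. In NRK-49F cells 1 of 7 with the match and 2 of 10 without it rose. The changes of members with and without the match overlapped, and a match describes the letters only.

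Of 15 mitochondrial members tested in NRK-52E cells, 8 fell and 1 rose at pH 6.0, with a median log2 fold change of -0.21 and 36.6% and 24.7% of all genes falling and rising. The levels did not overlap in 5 of the 15 (Fars2, Mars2, Rars2, Sars2 and Wars2). With NRK-52E cells filtered, scaled and fitted alone, the median of all genes moved from -0.12 to 0.00 and 4 mitochondrial members fell (Fars2, Wars2, Sars2 and Mars2) and 2 rose (Ears2 and Pars2), while the 17 cytosolic members kept their calls. The falls of Rars2, Yars2, Hars2 and Iars2, of 0.36, 0.29, 0.24 and 0.21 on the log2 scale, did not pass the test in that fit, in which filter, scaling and spread all differ, and with RLE scaling in the common model 7 members fell. Pars2, the mitochondrial proline enzyme, was the member that rose (log2 0.40).

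Fars2, which charges phenylalanine in mitochondria as a single chain, had levels of 12.9, 15.4 and 19.8 FPM (lowest, median and highest) in NRK-52E cells at pH 7.4, and of 7.01, 8.39 and 11.5 FPM at pH 6.0. All samples at pH 6.0 lay below all at pH 7.4, with a log2 fold change of -0.86 ± 0.14 (adjusted p = 1.535e-05). Wars2, the mitochondrial tryptophan enzyme, fell from 16.5, 17.5 and 19.7 FPM to 9.72, 12.2 and 13.1 FPM, again without overlap (log2 -0.61 ± 0.09, adjusted p = 1.673e-06). Sars2 (serine) and Mars2 (methionine) fell by 0.48 and 0.43 on the log2 scale.

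For amino acids that have a cytosolic and a mitochondrial enzyme under paired symbols, 12 of 14 pairs had both genes tested. In NRK-52E cells the log2 fold change of the cytosolic gene was above that of its mitochondrial counterpart in 12 of 12 pairs, by 0.18 to 1.64 (median 0.67). The widest gap was that of Wars1 and Wars2 (1.64), followed by Mars1 and Mars2 (1.23) and Sars1 and Sars2 (1.10). In NRK-49F cells the cytosolic gene was above in 6 of 12 pairs, with differences from -0.43 to 0.94 and a median of -0.01.

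The summed level of the cytosolic members in NRK-52E cells was 3394 ± 140 FPM at pH 7.4 and 5472 ± 511 FPM at pH 6.0 (mean ± SD, n = 6 each). At pH 6.0 the sum was 4900 to 5198 FPM in sample group 1 and 5825 to 6100 FPM in sample group 3, all above the highest sample at pH 7.4 (3672 FPM). The mitochondrial sum was 367 ± 6.24 FPM at pH 7.4 and 320 ± 11.5 FPM at pH 6.0. Gars1 and Kars1, which give both forms, entered the cytosolic sum only. Their means in NRK-52E cells were 358 and 116 FPM at pH 7.4 and 759 and 178 FPM at pH 6.0. The direction of the mitochondrial sum and the size of the ratio thus depend on this assignment. The ratio of both sums within a sample, in which the scaling cancels, was 9.25 ± 0.33 at pH 7.4 (8.99 to 9.89) and 17.1 ± 1.99 at pH 6.0 (14.3 to 16.3 in sample group 1, 18.6 to 19.2 in sample group 3). In NRK-49F cells the cytosolic sum was 2431 ± 143 FPM (n = 6) and 2762 ± 287 FPM (n = 5), and the mitochondrial sum 426 ± 10.0 FPM and 454 ± 18.2 FPM. Their ratio was 5.71 ± 0.302 and 6.07 ± 0.478, with overlap between 5.27 to 5.99 at pH 7.4 and 5.70 to 6.89 at pH 6.0. In bulk RNA a change of RNA per cell in all cells and a change in the share of cells that hold it cannot be told apart.

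**Figure D3:**
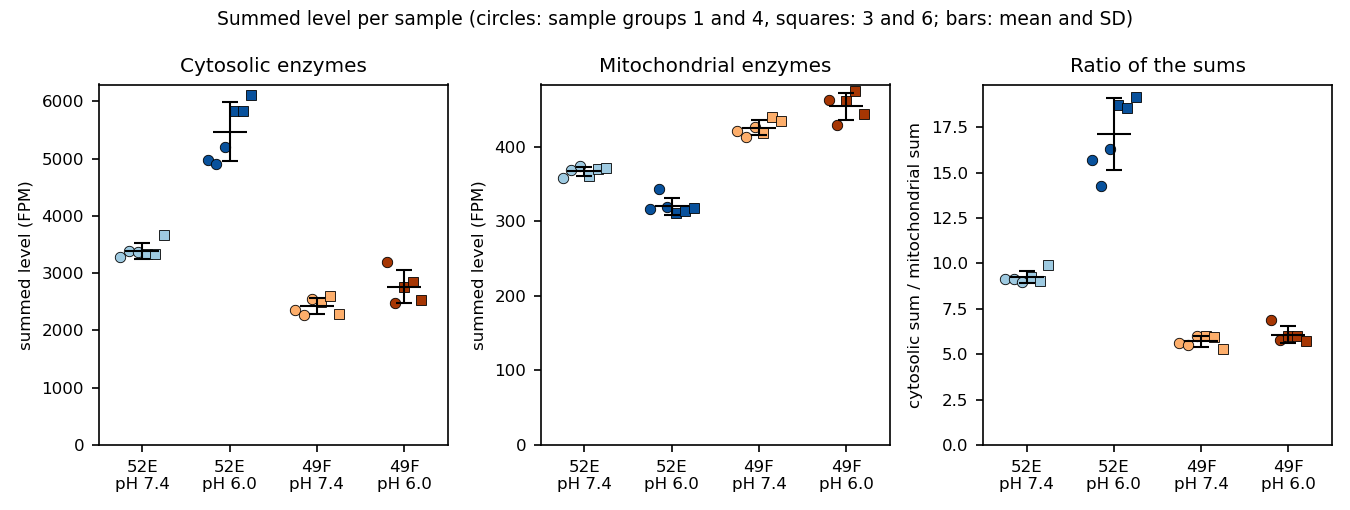
The panels show the sum of the cytosolic members and of the mitochondrial members in FPM and the ratio of both sums, from 0, for every sample, with circles for sample groups 1 and 4, squares for 3 and 6, and mean and SD. In NRK-52E cells the ratio is 14.3 to 19.2 at pH 6.0, above all samples at pH 7.4 (8.99 to 9.89), while in NRK-49F cells both conditions overlap.

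In NRK-49F cells fewer members passed the test than in NRK-52E cells, as did fewer of all genes (28.9% against 61.2%). Of 20 cytosolic members 4 rose and 1 fell at pH 6.0, while of all genes 28.9% passed, 14.5% upwards and 14.4% downwards, with a median log2 fold change of 0.16 beside 0.00 over all genes. Mars1, Gars1, Lars1 and Farsb rose and Rars1 fell (log2 -0.28 ± 0.10, adjusted p = 0.03305). The conditions did not overlap in 4 of the 20 (Gars1, Lars1, Mars1 and Wars1), compared with 20.6% of all genes. Without A042 4 cytosolic members passed the test and without A035, an NRK-52E sample, 6 did. Farsb (log2 0.21, adjusted p = 0.04376) did not pass without A042 (0.16, adjusted p = 0.1524) or in either sample group alone, and Rars1 did not pass without A043 (-0.22, adjusted p = 0.1036) or in either sample group alone. Farsb did not pass in 15 of 35 alternative settings and Rars1 in 7 of 35. For Farsb these include RLE scaling (adjusted p = 0.0503) and NRK-49F cells fitted alone (adjusted p = 0.05476).

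Mars1 of NRK-49F cells was at 108, 117 and 130 FPM (lowest, median and highest) at pH 7.4 and at 225, 163, 158, 158 and 152 FPM in the 5 samples at pH 6.0, in the order A042, A043, A054, A055 and A056. A042 stood above the others, and all 5 were above pH 7.4 (log2 0.55 ± 0.09, adjusted p = 7.128e-05). Gars1 was at 174, 197 and 212 FPM at pH 7.4 and, in the same order, at 364, 233, 266, 281 and 229 FPM at pH 6.0. A042 was again the highest, and the conditions did not overlap (log2 0.50 ± 0.14, adjusted p = 0.008717).

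Lars1 was at 84.3, 90.2 and 96.0 FPM at pH 7.4 and at 112, 107, 114, 114 and 117 FPM at pH 6.0, with all samples at pH 6.0 higher (log2 0.33 ± 0.06, adjusted p = 0.0004281). Eprs1 was at 107, 118 and 156 FPM at pH 7.4 and at 147, 145, 144, 133 and 143 FPM at pH 6.0. Its conditions overlapped through a single sample at pH 7.4 and it did not pass the test (log2 0.22 ± 0.09, adjusted p = 0.06723). Wars1 was at 42.5, 45.3 and 47.7 FPM and at 51.6, 50.1, 54.3, 52.7 and 52.3 FPM, which did not overlap, yet it did not pass the test either (log2 0.21 ± 0.10, adjusted p = 0.1119). With NRK-49F cells fitted alone Wars1 passed (0.20, adjusted p = 0.01946), and it did not pass in 33 of 35 alternative settings.

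Among 15 mitochondrial members of NRK-49F cells, 1 rose and 2 fell, with a median log2 fold change of 0.11, and of all genes 14.5% rose and 14.4% fell. The conditions did not overlap in 2 of them (Lars2 and Wars2), beside 20.6% of all genes. Lars2, the mitochondrial leucine enzyme, rose from 35.9, 38.9 and 39.9 FPM (lowest, median and highest) to 50.96, 50.3, 51.8, 53.7 and 52.3 FPM (log2 0.43 ± 0.07, adjusted p = 5.484e-05). Wars2 fell from 24.6, 27.8 and 30.6 FPM to 18.2, 19.2, 20.4, 20.4 and 19.4 FPM (log2 -0.51 ± 0.09, adjusted p = 0.0001282), and Mars2 fell by 0.39 on the log2 scale. Wars2 and Mars2 were the members that fell in each line, whereas no member passed the test in opposite directions, which 4.18% of all genes did.

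The auxiliary proteins did not rise with the enzymes. Aimp1, which is also secreted as a cytokine precursor, was at 43.3, 51.1 and 66.8 FPM in NRK-52E cells at pH 7.4 and at 41.95, 51.5 and 54.2 FPM at pH 6.0. The NRK-49F line held it at 59.2, 65.0 and 89.7 FPM and at 85.7, 53.7, 69.7, 82.1 and 54.4 FPM. The conditions overlapped in each line (log2 -0.05 ± 0.13 and 0.00 ± 0.13). Aimp2, the scaffold that joins several enzymes of the complex, was at 27.2, 29.8 and 41.8 FPM in NRK-52E samples at pH 7.4 and at 19.99, 24.0 and 27.6 FPM at pH 6.0, with A035 the highest sample. These conditions overlapped and Aimp2 passed the test (log2 -0.40 ± 0.15, adjusted p = 0.0201), but not without A035 (-0.30, adjusted p = 0.06712), in sample group 1 alone (adjusted p = 0.07704) or in sample group 3 alone (adjusted p = 0.1089). In NRK-49F cells Aimp2 was at 30.9, 35.2 and 49.5 FPM and at 39.7, 22.01, 25.7, 30.7 and 21.9 FPM, with overlap and a change of like size that did not pass (log2 -0.39 ± 0.15, adjusted p = 0.05819). This call depended on the processing. Aimp2 passed there by edgeR with RLE scaling (adjusted p = 0.04895) and by DESeq2 (adjusted p = 0.03593), among others, and did not pass in 25 of 35 alternative settings.

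The difference between the lines had its own contrast. It passed the test for 41.4% of all genes, and 16.8% changed more positively in NRK-52E cells and 24.7% more negatively, with a median of -0.09. The pH change of 10 of 20 cytosolic members was more positive in NRK-52E than in NRK-49F cells and that of 0 was more negative. Eprs1 differed by 1.12 ± 0.12 on the log2 scale (adjusted p = 1.622e-07) and Wars1 by 0.81 ± 0.14 (adjusted p = 4.248e-05). Iars1, Gars1, Vars1, Tars1, Aars1, Nars1, Lars1 and Cars1 differed by 0.71, 0.58, 0.56, 0.45, 0.42, 0.41, 0.34 and 0.29. In sample groups 1 and 4 alone, Gars1 (0.14, adjusted p = 0.6632) and Aars1 (0.15, adjusted p = 0.5065) did not pass. Nars1 (0.17, adjusted p = 0.3194) and Cars1 (0.22, adjusted p = 0.3657) did not pass there either. Cars1 did not pass in 13 of 33 alternative settings. For Mars1 the difference did not pass the test (0.25 ± 0.13, adjusted p = 0.1191), and without A042, its highest NRK-49F sample, it did (0.37, adjusted p = 0.005824). Without A042, 13 cytosolic members passed this test, and without A021 9 did.

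Of the 15 mitochondrial members 5 changed more negatively in NRK-52E cells and 0 more positively, beside 24.7% and 16.8% of all genes. Fars2 differed by -0.97 ± 0.20 (adjusted p = 0.0004464). In NRK-49F cells it was at 27.5, 31.9 and 40.4 FPM at pH 7.4 and at 44.9, 25.8, 38.3, 38.3 and 30.8 FPM at pH 6.0, and these overlapped. Lars2 differed by -0.56 ± 0.10 (adjusted p = 8.176e-05). In NRK-52E cells Lars2 was at 19.2, 20.5 and 22.3 FPM at pH 7.4 and at 17.1, 18.3 and 22.3 FPM at pH 6.0, with overlap. Rars2, Sars2 and Hars2 differed by -0.51, -0.49 and -0.36. Hars1 and Hars2 are neighbours in the genome that are read from a shared promoter region, and the sources do not say whether the counting used strand.

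**Figure D4:**
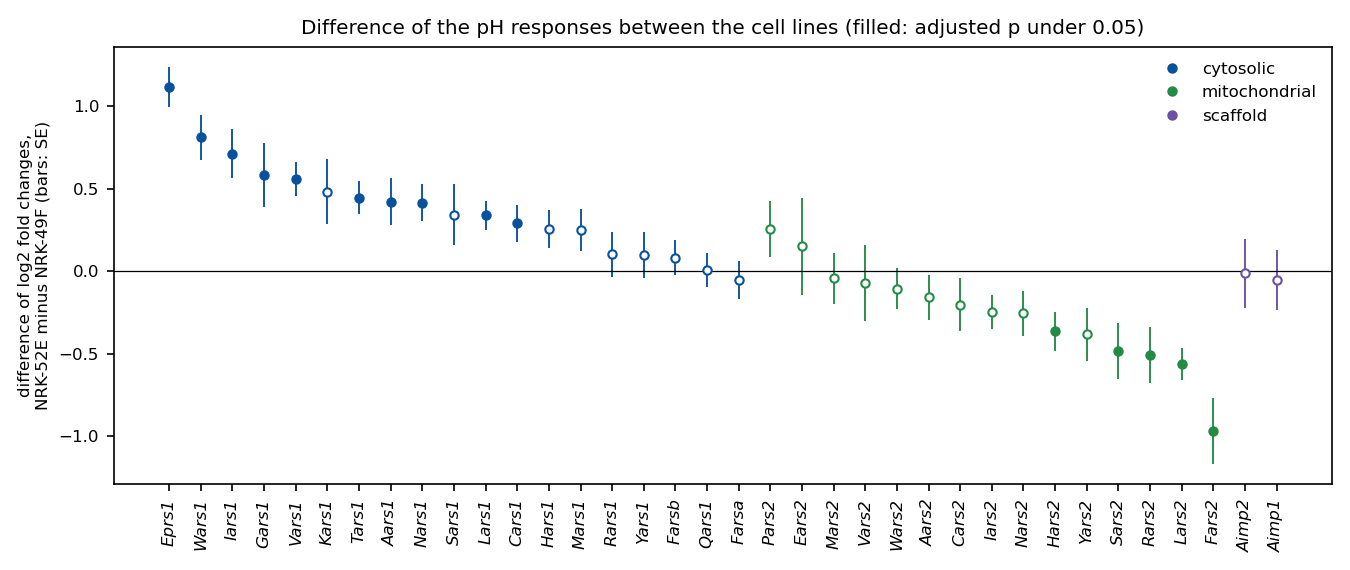
The plot gives, for 36 tested members, the difference of its log2 fold changes (NRK-52E minus NRK-49F) with its standard error, in blue for cytosolic, green for mitochondrial and purple for auxiliary members, and filled points passed the test. Cytosolic members reach 1.12 (Eprs1) and mitochondrial members -0.97 (Fars2).

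The lines already differed at pH 7.4, where 68.8% of all genes passed the test, 33.9% being higher and 35% lower in NRK-49F than in NRK-52E cells. Of 20 cytosolic members 12 were lower and 4 higher in NRK-49F cells, with a median log2 difference of -0.58 beside -0.02 over all genes. Eprs1, Sars1, Mars1 and Lars1 had the lowest values (-1.57, -1.26, -1.13 and -1.03), and Qars1, Kars1, Cars1 and Hars1 were higher (0.99, 0.77, 0.53 and 0.45). Of 15 mitochondrial members 6 were higher, among them Fars2 (1.07), Lars2 (0.89) and Wars2 (0.65), and 4 were lower, Mars2 (-1.72), Cars2 (-1.17), Rars2 (-0.69) and Ears2 (-0.46). Ears2 was close to the threshold (adjusted p = 0.04694) and did not pass in 16 of 30 alternative settings. Aimp1 was higher by 0.40. This comparison depends on the scaling: without a scaling factor the median of all genes moved from -0.02 to -0.21, the share of higher genes among those past the threshold from 49.2% to 38.03%, and the counts to 4 higher and 15 lower cytosolic and 5 higher and 6 lower mitochondrial members.

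The sample groups were compared within each line. In sample group 1, 14 of 20 cytosolic members rose at pH 6.0 (median 0.36) and 3 of 15 mitochondrial members fell, with 48.9% of all genes past the threshold in either direction. In sample group 3, 16 cytosolic members rose (median 0.57), while 6 mitochondrial members fell and 2 rose, with 57.4% of all genes past it. In sample groups 4 and 6 of NRK-49F cells, 3 and 4 cytosolic members rose and 0 fell, 1 and 2 mitochondrial members fell and 1 rose in each, with 23% and 21.2% of all genes past the threshold.

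The pH change itself differed between sample groups 3 and 1 for 10.6% of all genes, 3.78% with a higher and 6.87% with a lower change in sample group 3. Wars1 and Nars1 were the members that passed this test by edgeR, with 0.70 ± 0.10 (adjusted p = 0.0001884) and 0.37 ± 0.11 (adjusted p = 0.03477). DESeq2 called 6 cytosolic members, and a member that did not pass is not thereby shown to change alike in both sample groups. Wars1 rose by 0.66 in sample group 1 and by 1.36 in sample group 3, and Nars1 by 0.36 and 0.73. For Gars1 and Eprs1 the difference did not pass the test (0.50 and 0.40, adjusted p = 0.09208 and 0.08303). Between sample groups 6 and 4 edgeR called 0 genes, with 596 genes and 2 members at an unadjusted p under 0.05, and DESeq2 called 10 genes and 0 members.

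Genes around the synthetases were taken from fixed lists. Of 14 further genes of tRNA charging, among them Tars3, itself a threonine synthetase gene, the amidotransferase subunits Gatb, Gatc and Qrsl1, and genes that export, edit or modify tRNAs, 5 rose and 4 fell in NRK-52E cells (median 0.24) and 6 rose and 0 fell in NRK-49F cells (median 0.31). The shares over all genes were 24.7% and 36.6% in the former line and 14.5% and 14.4% in the latter. Xpot, the exportin that carries tRNAs out of the nucleus, was at 89.0, 118 and 127 FPM in NRK-52E cells at pH 7.4 and at 273, 348 and 406 FPM at pH 6.0, which did not overlap. Its rise was 1.60 ± 0.11 (adjusted p = 1.059e-11), against 0.50 ± 0.11 in the NRK-49F line, with a difference of 1.10 ± 0.15 (adjusted p = 3.94e-06). Aarsd1, an editing protein that clears mischarged alanine tRNA, rose in NRK-49F cells (0.66 ± 0.18, adjusted p = 0.007349). Dtd2, a deacylase, counts among the 4 of these that fell in NRK-52E cells through A021 alone, with at most 9 counts at pH 7.4 and 0 in every sample at pH 6.0, a level under the limit of 3 counts. No fold is given, 3 of the genes fell without A021, and the median without Dtd2 was 0.28.

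The kinases that phosphorylate eIF2 and its exchange factor eIF2B stand upstream of ATF4. Of 13 genes around eIF2, which are its kinases, the eIF2B subunits, the eIF2 subunit gene Eif2s1 and the regulators Gcn1, Impact and Ppp1r15b, 11 rose and 0 fell in NRK-52E cells (median 0.49) and 4 rose and 0 fell in NRK-49F cells (median 0.14). The shares of all genes rising and falling were 24.7% and 36.6% in the former line and 14.5% and 14.4% in the latter. Eif2ak3, which encodes PERK, the eIF2 kinase of the endoplasmic reticulum, was at 37.9, 57.4 and 62.1 FPM in NRK-52E cells at pH 7.4 and at 117, 139 and 154 FPM at pH 6.0, without overlap. It rose by 1.32 ± 0.11 (adjusted p = 1.922e-10) there and had a log2 fold change of -0.02 ± 0.11 in NRK-49F cells, and the difference of 1.34 ± 0.15 passed the test (adjusted p = 2.186e-07). Eif2b2, a subunit of the exchange factor, rose by 0.43 ± 0.15 in the former line and by 0.78 ± 0.16 in the latter.

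Of 28 tested genes of the integrated stress response other than synthetases, 17 rose and 2 fell in NRK-52E cells (median 0.62) and 14 rose and 4 fell in NRK-49F cells (median 0.33). Over all genes 24.7% rose and 36.6% fell in the former line, and 14.5% rose and 14.4% fell in the latter. Without A042, 10 genes of this list rose in NRK-49F cells. Atf4 transcript rose by 0.74 ± 0.11 in NRK-52E cells (adjusted p = 4.321e-06), did not pass in NRK-49F cells (0.30 ± 0.12, adjusted p = 0.05943) and differed between the lines by 0.44 ± 0.16 (adjusted p = 0.03098). Psat1, an enzyme of serine synthesis, went in opposite directions, by -0.79 ± 0.11 in NRK-52E and 0.84 ± 0.11 in NRK-49F cells, with a difference of -1.63 ± 0.16 (adjusted p = 2.444e-08). NRK-52E cells held it at 68.5, 74.5 and 81.8 FPM (pH 7.4) and at 38.1, 42.8 and 50.5 FPM (pH 6.0), without overlap. Slc7a1, a transporter of cationic amino acids, rose by 0.35 ± 0.13 in NRK-52E and fell by 0.49 in NRK-49F cells, a difference of 0.84 ± 0.19 (adjusted p = 0.0009351). Its rise in NRK-52E cells did not pass without A035 (0.28, adjusted p = 0.05713) or in sample group 1 alone (0.08, adjusted p = 0.7423).

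Some genes of this list were close to the limit of detection. Aldh1l2, the mitochondrial formate-producing folate enzyme, had 0 counts in every NRK-52E sample at pH 7.4 and 0 to 15 counts at pH 6.0. Its mean at pH 6.0 was 2.09-fold the level of 3 counts averaged over the libraries at pH 7.4. This was taken as the lower bound of its change from pH 7.4, although some samples at pH 6.0 were themselves under 3 counts. The median of the list was 0.62 also with Aldh1l2 at this bound. In NRK-49F cells it rose by 0.96 ± 0.32 (adjusted p = 0.03176). Gdf15, a secreted stress cytokine, passed the test in each line with 0 to 5 counts per sample at pH 7.4 against 6 to 48 counts at pH 6.0 in NRK-52E cells, and with 0 to 4 against 6 to 36 counts in NRK-49F cells.

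Elongation and release factors use the charged tRNAs at the ribosome. Of 9 genes of cytosolic elongation and release, 5 rose and 1 fell in NRK-52E cells (median 0.38). In NRK-49F cells edgeR and DESeq2 called 0 of the 9 (median 0.00), with 1 at an unadjusted p under 0.05. Abce1, which recycles ribosomes, rose by 0.65 ± 0.09 and Eef2k, the kinase that inhibits elongation factor eEF2, fell by 0.32 in NRK-52E cells. Of 10 mitochondrial translation factors 1 rose and 4 fell in NRK-52E cells (median -0.11) and 0 rose and 1 fell in NRK-49F cells (median 0.20), beside 24.7% of all genes rising and 36.6% falling in the former line and 14.5% and 14.4% in the latter. Tsfm, the mitochondrial elongation factor Ts, was the one that rose (0.98 ± 0.15, adjusted p = 4.01e-06). Mrrf, the mitochondrial ribosome recycling factor, was at 32.6, 33.2 and 37.4 FPM in NRK-52E cells at pH 7.4 and at 13.1, 15.3 and 20.9 FPM at pH 6.0, without overlap, and fell by 1.09 on the log2 scale there and by 0.43 in NRK-49F cells.

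**Figure D5:**
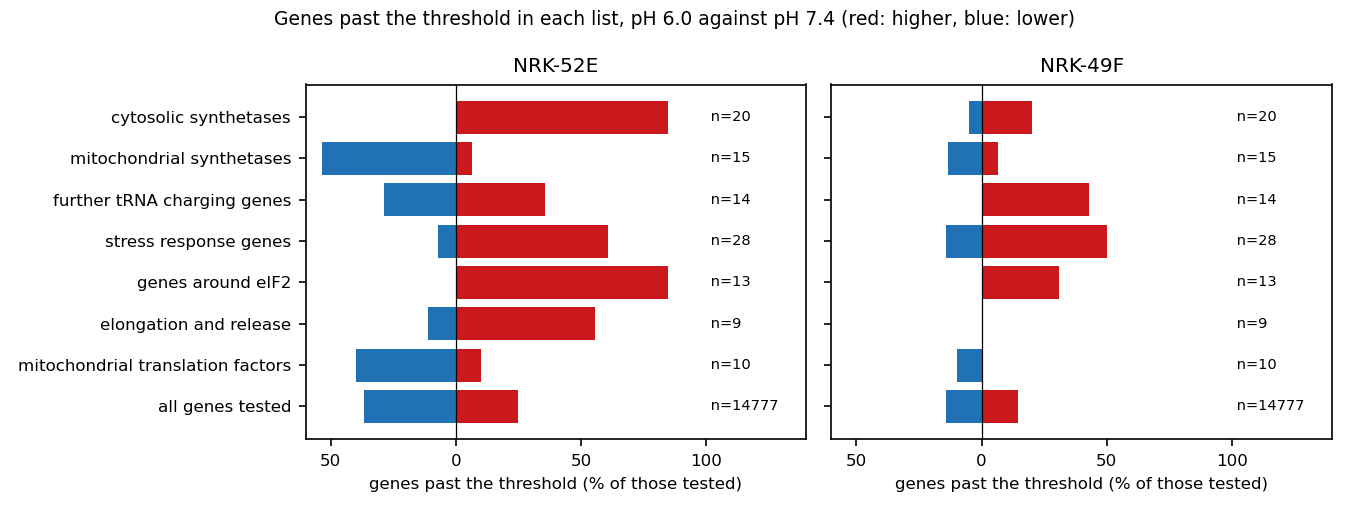
The bars give the share of tested genes in each list, in percent, that were higher (red, to the right) or lower (blue, to the left) at pH 6.0 in each cell line, with the number of genes tested. In NRK-52E cells 17 of 20 cytosolic synthetases and 11 of 13 genes around eIF2 were higher, against 24.7% of all genes.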

How the data were processed

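The authors mapped read pairs with HISAT2 2.1.0, to rn7 per the study's methods and to rn6 per the submitters' processing notes, and counted them on Ensembl exons with featureCounts, multi-mapping reads included, so that near-identical copies can share reads. The strand setting is not given in the sources used here. The deposited values are raw counts per gene without normalization. Of the columns, 23 matched sample labels and 13 did not and were left out. All 23 samples entered 1 model of 4 conditions in R 4.3.3 with edgeR 4.0.16 (filterByExpr with min.count 10 and min.total.count 15, TMM scaling, quasi-likelihood test, Benjamini-Hochberg adjusted p under 0.05 over 14777 genes). A second model split the conditions by sample group. FPM came from the cpm function of edgeR, with TMM-scaled library sizes. Standard errors are the absolute log2 fold change divided by the square root of F. DESeq2 1.42.0 and other scalings, filters, thresholds and sets of samples were alternatives. Counting limits (3 counts) cover counting error only. The steps were tested on simulated data. Members, lists and the motif search were chosen with earlier results of these data known. Levels by sample are printed for the 3 cytosolic and 2 mitochondrial members with the largest change past the threshold in each line, the 2 of each with the largest difference between lines, Aimp1 and Aimp2. Of each list, the largest rise and fall in each line and Atf4 are named. A few items entered the counts and are not reported here.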

Additional observations from a re-analysis of the deposited data

Results flagged for a closer look

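Single samples stood apart from the rest of their condition for 13 of 148 combinations of member and condition, where chance gives about 1 in 20. A035, an NRK-52E sample at pH 7.4, accounted for 7 of the 13. It was high for Gars1 (424 FPM, others 324 to 353), Sars1 (528.8 FPM, others 380 to 408), Tars1 (131.8 FPM, others 116 to 122), Yars1 (127.2 FPM, others 98.2 to 106), Aimp1 (66.85 FPM, others 43.3 to 52.1) and Aimp2 (41.77 FPM, others 27.2 to 30.2), and low for Iars2 (61.19 FPM, others 73.1 to 76.4). A042, an NRK-49F sample at pH 6.0, was high for Mars1 (224.8 FPM, others 152 to 163) and Sars2 (19.47 FPM, others 12.5 to 13.9). In NRK-52E cells at pH 6.0, A038 was high for Hars2 (73.3 FPM, others 61.8 to 65.7) and A024 was low for Aimp1 (41.95 FPM, others 49.7 to 54.2). In NRK-49F cells at pH 7.4, A051 was high for Eprs1 (155.8 FPM, others 107 to 121) and A052 was low for Vars2 (17.11 FPM, others 24.9 to 29.3).

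The pH change differed between the lines by the tested contrast for 15 members. Of these, Gars1, Aars1, Nars1, Cars1, Hars2 and Sars2 did not pass in sample groups 1 and 4 alone. The difference, NRK-52E minus NRK-49F on the log2 scale, was 1.12 for Eprs1, 0.81 for Wars1, 0.71 for Iars1, 0.58 for Gars1, 0.56 for Vars1, 0.45 for Tars1, 0.42 for Aars1, 0.41 for Nars1, 0.34 for Lars1 and 0.29 for Cars1. It was -0.97 for Fars2, -0.56 for Lars2, -0.51 for Rars2, -0.49 for Sars2 and -0.36 for Hars2. Within NRK-52E cells the change differed between sample groups 3 and 1 by 0.70 for Wars1 and 0.37 for Nars1.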

How the results depend on the processing

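No paired analysis was possible because the samples at both pH values share no replicate code. With the sample group as a block, 12 cytosolic and 6 mitochondrial members passed the test for the difference between lines (10 and 5 as reported), and Qars1 (0.19, adjusted p = 0.04009) and Aimp2 (-0.39, adjusted p = 0.04281) also passed in NRK-49F cells. No change of a member or named gene that passed the test as reported reversed its direction under the alternatives run. At an adjusted p under 0.01, 2661 genes and 3 cytosolic members were called in NRK-49F cells, 2 mitochondrial members for the difference between lines, and 698 genes and 1 cytosolic member between sample groups 3 and 1. The cytosolic count between sample groups 3 and 1, 2 as reported, was 6 without a scaling factor, 1 without a filter, 4 with at least 10 counts in every sample and 6 by DESeq2, which also called 10 genes between sample groups 6 and 4. In sample groups 1 and 4 alone, 3 mitochondrial members were called in NRK-52E cells, 3 cytosolic members in NRK-49F cells, and 3702 genes, 6 cytosolic and 3 mitochondrial members for the difference between lines. The log2 ratio of the mitochondrial sum in NRK-52E cells was -0.20 as reported and -0.16 with RLE scaling. The cause of these shifts was not tested.

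With each sample left out in turn, the cytosolic and mitochondrial counts were 16 to 18 and 8 to 10 in NRK-52E cells, 4 to 6 and 3 in NRK-49F cells, 9 to 13 and 5 to 6 for the difference between lines, and 16 to 17 and 9 to 10 between lines at pH 7.4. Between sample groups 3 and 1 the cytosolic count was 1 to 4 and that of all genes 1094 (without A026) to 1877 (without A042), and between sample groups 6 and 4 it was 0 to 11 genes, with 11 without A043.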
